A study of Mus musculus with 16 samples.

Results

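Mitochondrially encoded transcripts are the RNAs made inside the mitochondrion from its own small circular genome. A list of 10 of them was taken by gene symbol from the deposited table of 13964 genes, and all 10 were present. They are the ribosomal RNAs mt-Rnr1 and mt-Rnr2 and the mRNAs mt-Nd1, mt-Nd2, mt-Nd4, mt-Nd6, mt-Co1, mt-Co2, mt-Co3 and mt-Cytb. The list names symbols and sets no threshold on a value, although results of these data were known when it was made. All 10 passed the filter on low values. The table holds 7 further genes of the same genome, 5 mRNAs and 2 tRNAs, which are given only where they add to the description.

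RNA was sequenced from aortic and pulmonary valves cut out by laser from the hearts of C57BL/6 mouse embryos at stage E14.5 (days of embryonic development). Each valve gave 4 wild-type and 4 mutant libraries, so there are 4 groups and 16 libraries. The mutants are Jag1flox;Nkx2.5-Cre embryos, which carry a floxed allele of the Notch ligand gene Jag1 and a Cre recombinase driven by Nkx2.5, a gene active in cardiac cells. The controls are labelled wild type, so the Cre and the floxed allele come together in the mutant groups and cannot be told apart. RNA was isolated with a PicoPure kit and amplified with the Ovation RNA-Seq V2 system before TruSeq library preparation, and the samples are described as PolyA RNA. The aortic valves were prepared as batch 1 and the pulmonary ones as batch 2, and valve cannot be told apart from batch. The libraries come from 5 litters. Each mutant library has a wild-type library of its own litter and valve, but the labels do not tie libraries to embryos. The p-values below therefore measure the spread between these libraries.

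The mitochondrial genome is read from promoters on each strand into long transcripts that are cut apart, largely at the tRNAs that lie between the other genes. The ribosomal RNAs join imported proteins to form the mitochondrial ribosome, and the mRNAs encode core subunits of the respiratory chain, which all need nuclear-encoded partners. Muscle is known for a high content of mitochondria.

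Every member but one is read from the same strand. The members lie on the mitochondrial chromosome (chrM, GRCm38 coordinates, GENCODE M21 annotation), each as 1 exon without an intron. The small-subunit rRNA mt-Rnr1 spans chrM:70-1024 and the large-subunit rRNA mt-Rnr2 spans chrM:1094-2675. The mRNA genes on that strand follow as mt-Nd1 at chrM:2751-3707, mt-Nd2 at chrM:3914-4951, mt-Co1 at chrM:5328-6872, mt-Co2 at chrM:7013-7696, mt-Co3 at chrM:8607-9390, mt-Nd4 at chrM:10167-11544 and mt-Cytb at chrM:14145-15288. On the opposite strand lies mt-Nd6, at chrM:13552-14070.

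The ends of the mRNA genes are shown because most of these mRNAs have almost no sequence beyond the coding part. A further reason is that 3 of the 8 do not encode a whole stop codon. Each line gives the last 24 bases of the gene on its own strand, 5′ to 3′, from the reference genome, with the final codon or the base left after the last full codon in capitals. In mt-Co3, mt-Nd4 and mt-Cytb a single T is left, and it is textbook knowledge that the A tail added to the RNA completes the stop codon there.
mt-Nd1: gcgggagtaccaccatacataTAG
mt-Nd2: ctagccccccaactaattaccTAG
mt-Co1: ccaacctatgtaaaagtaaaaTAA
mt-Co2: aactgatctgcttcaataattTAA
mt-Co3: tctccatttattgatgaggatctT
mt-Nd4: aactaattacaggcctgacaataT
mt-Cytb: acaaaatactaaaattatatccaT

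The end of mt-Nd6 is shown with that of mt-Nd5, a complex I gene on the other strand, because the genes overlap there by 14 bases, which are in capitals and are reverse complements of each other. The mt-Nd6 end lies at chrM:13552-13575 on the minus strand and the mt-Nd5 end at chrM:13542-13565 on the plus strand. The rest of mt-Nd6 also lies opposite transcribed RNA of the other strand. The sources used here do not give whether the counting used strand, so reads of mt-Nd6 and reads of the RNA opposite to it cannot be told apart.
mt-Nd6: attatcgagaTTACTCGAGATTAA
mt-Nd5: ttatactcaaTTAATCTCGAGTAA

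The rRNA genes are shown by their longest run of A, in capitals with 12 bases on each side, because these RNAs took most of the mitochondrial reads in samples described as PolyA RNA. The run is 5 bases long in mt-Rnr1 (chrM:693-721, plus strand) and 7 bases long in mt-Rnr2 (chrM:1476-1506, plus strand). A run of 8, the longest in any member, was in mt-Nd2, an mRNA of low level, and mt-Nd6 had none longer than 3. Whether such runs bear on the reads obtained was not tested.
mt-Rnr1: tcagcaaaccctAAAAAggtattaaagta
mt-Rnr2: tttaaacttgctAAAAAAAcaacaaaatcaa

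Depth was 4.56 to 8.68 M reads per library (M, megareads). Jag1, the targeted gene, did not overlap between genotypes in either valve and was the lower in mutants, at 5.93 to 11.4 against 18.8 to 54.7 normalised counts in the aortic and 1.85 to 12.4 against 13.6 to 25.7 in the pulmonary valve. All 8 valve and cushion mesenchyme markers were above 0 in every library, with summed levels of 1278 to 10073 normalised counts. Skeletal muscle genes were also present, unevenly: Mylpf, a light chain of fast skeletal muscle myosin, was at 0.569 to 23.2 in 6 libraries and at 278 to 900 in the other 10. The 6 are replicates 2 and 4 of the wild type and replicate 4 of the mutant in each valve. A level of Mylpf below or at least 100 splits the libraries below. In bulk tissue such as this, fewer cells of a type and less RNA per cell cannot be told apart.

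The 10 transcripts took 17.4% to 33.2% of the reads of a library, with a mean of 23.8% ± 4.84 (SD, n = 16). In the aortic valve the share was 24.9% ± 7.76 for wild type and 25.0% ± 4.30 for mutants (SD, n = 4 each). In the pulmonary valve it was 22.2% ± 4.90 and 23.1% ± 2.62. Nearly all of it was ribosomal RNA. The rRNA members took 16.2% to 31.7% of all reads, against 1.09% to 1.56% for the 8 mRNA members together, a range over libraries that was narrow by comparison.

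**Figure D1:**
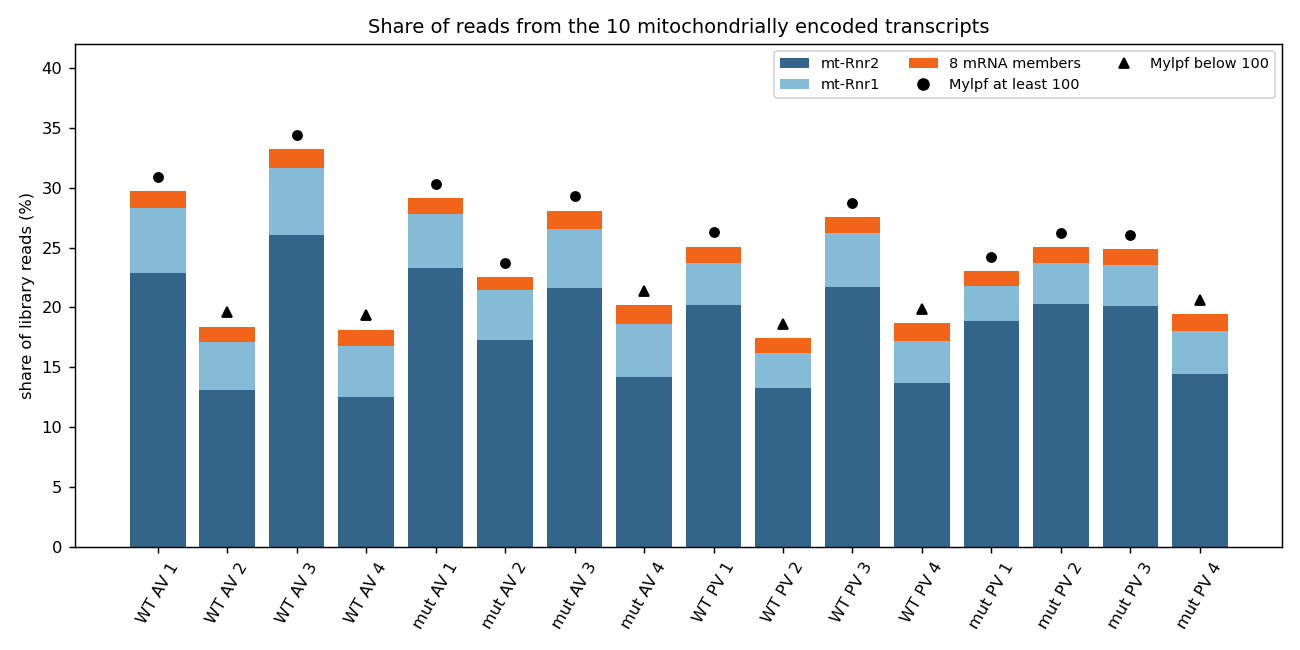
Stacked bars give the share of library reads (%, y axis) from mt-Rnr2, mt-Rnr1 and the 8 mRNA members in each of the 16 libraries (WT, wild type; mut, mutant; AV, aortic valve; PV, pulmonary valve), and the symbol above each bar gives the side of the Mylpf split. The bars under a triangle reach 17.4% to 20.2% and those under a circle 22.5% to 33.2%, while the mRNA segment stays between 1.09% and 1.56%.

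Divided by gene length, the levels formed a steep order. The 2 rRNAs came first, at 118232 ± 36549 normalised counts per kb for mt-Rnr2 and 43130 ± 11024 for mt-Rnr1 (SD, n = 16 libraries). Both exceeded every mRNA in every library, and the mean level per kb of mt-Rnr1 was 11.5 times that of mt-Co1, the highest mRNA, at 3734 ± 482 per kb. Ranges over libraries did not overlap between mt-Rnr2 and mt-Rnr1, between mt-Rnr1 and mt-Co1, or between mt-Co1 and mt-Co2.

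The middle of the order was close. Subunits of cytochrome c oxidase, the complex that passes electrons to oxygen, followed with mt-Co2 at 2049 ± 390 and mt-Co3 at 2006 ± 405 normalised counts per kb, and mt-Co2 was the higher in 10 of 16 libraries only. Next came mt-Cytb, the cytochrome b of complex III, at 1574 ± 287 per kb and mt-Nd1 at 1535 ± 407 per kb, with mt-Cytb higher in 9 of 16. These neighbours overlapped in range, so their order is not fixed by these libraries.

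Complex I, the entry point for electrons from NADH, held the lowest members. The level of mt-Nd4 was 1019 ± 189 normalised counts per kb, below mt-Nd1 in 16 of 16 libraries though the ranges overlapped. The level of mt-Nd2 was 206 ± 56.9 per kb, lower than mt-Nd4 by a ratio of means of 4.96 with no overlap. Last was mt-Nd6, the only member on the opposite strand, at 140 ± 34.5 per kb and below mt-Nd2 in 15 of 16 libraries. Lengths are those of the annotated genes. Read coverage along them was not analysed here.

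Some of these levels may be affected by nuclear copies of mitochondrial sequence. A search of the annotated transcripts found 10 non-mitochondrial genes that match 7 of the members over at least 100 bases at 90% identity or more, none with a row in the table. Matches of 100% ran over 783 bases of mt-Co3 (Gm28437), 876 bases of mt-Nd4 (Gm28439) and 681 bases of mt-Co2 (Gm28661). For mt-Co1 the closest copies reached 99.8% over 483 bases (Gm29216) and 97.6% over 1545 bases (Gm13340). RSEM, which the submitters used, shares reads among near-identical genes, so the values of mt-Co1, mt-Co2, mt-Co3, mt-Nd2, mt-Nd4, mt-Nd6 and mt-Cytb are uncertain to that extent. The rRNAs and mt-Nd1 had no such match in the annotated transcripts.

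The comparison of mutant with wild type asks whether these transcripts differ where Jag1 is lost under Nkx2.5-Cre. No member passed the threshold in either valve. By limma with Benjamini-Hochberg adjustment over 13963 genes, 0 of 10 members had an adjusted p under 0.05 in the aortic valve, where the percentage of all genes called was 0%, and 0 of 10 in the pulmonary valve, where it was also 0%. At an unadjusted p under 0.05 the count of members was again 0 in both valves, against 1.4% of all genes in the aortic and 3.13% in the pulmonary valve. The quasi-likelihood test of edgeR and DESeq2, both run on whole reads recovered from the table, called 0 members as well.

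**Figure D2:**
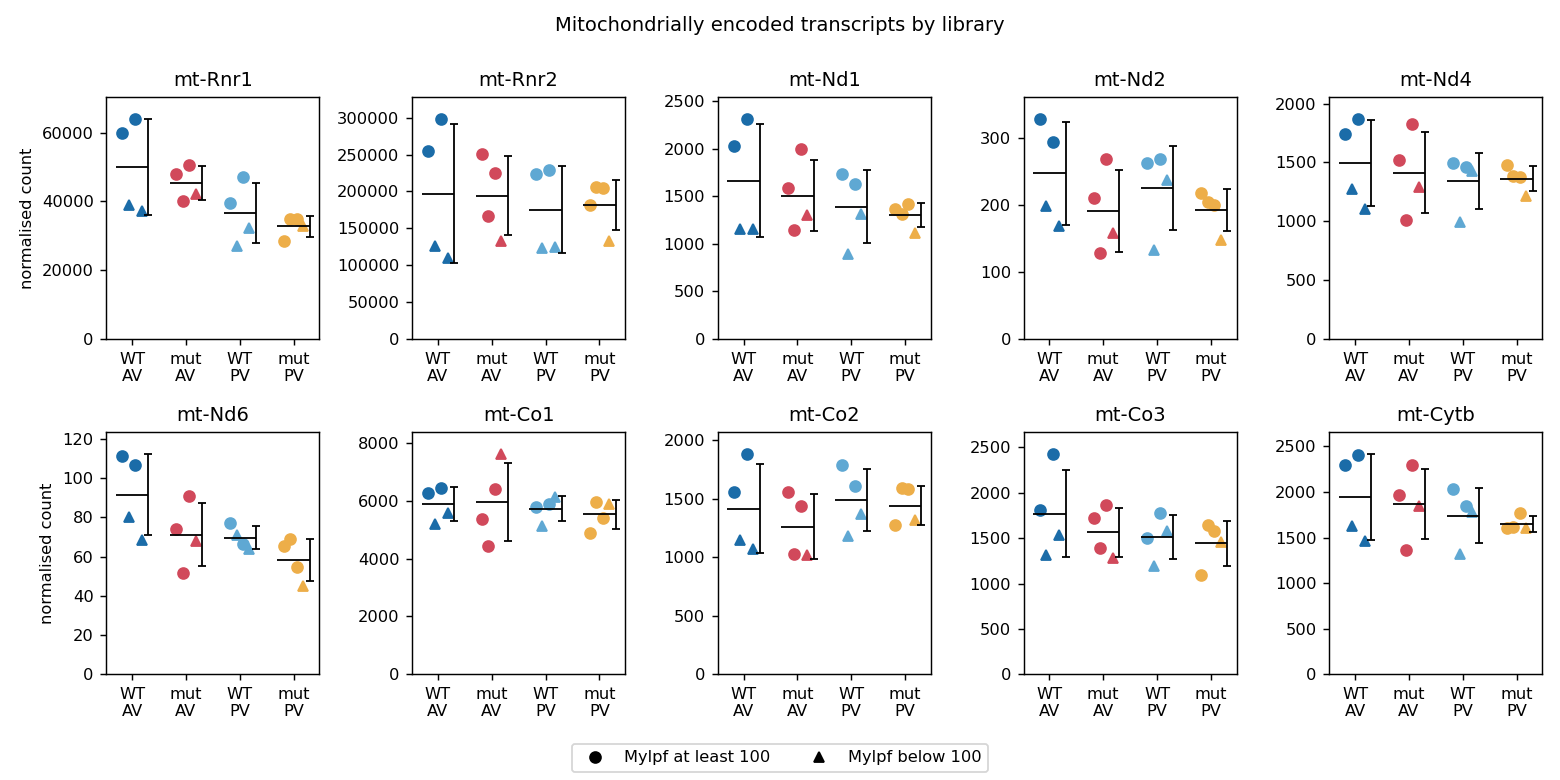
Each panel plots the normalised count (y axis, linear from 0) of 1 member in every library by group (AV, aortic; PV, pulmonary), with the group mean as a line, the SD as a bar (n = 4) and the side of the Mylpf split as the symbol. Mutant and wild-type libraries overlap in every panel and valve, and for mt-Rnr2 the triangles lie at 109298 to 133455, below every circle.

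The large-subunit rRNA mt-Rnr2 was at 254380, 126063, 298721 and 109298 normalised counts in wild-type aortic libraries 1 to 4, and at 250763, 167029, 225185 and 133455 in mutant aortic libraries 1 to 4. Wild-type pulmonary libraries 1 to 4 gave 223616, 123434, 229377 and 125101, and mutant pulmonary libraries 182343, 205827, 204808 and 133299. Each group held at least 1 library near the bottom of the range, and genotypes overlapped in both valves. The mean was 194108 ± 53503 in mutant against 197116 ± 93743 in wild-type aortic libraries, while the difference of the mean log2 values, which limma tests, had the opposite sign at 0.07 (SE 0.89, limma, adjusted p = 1.00). In the pulmonary valve it was 181569 ± 33956 against 175382 ± 59073, a log2 difference of 0.09 (SE 0.89, limma, adjusted p = 1.00).

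That SE comes from a fit in which the spread of a gene is tied to its mean level, and mt-Rnr2 sits at the top of the scale. Without this tie, chosen as an alternative after the data were seen, the SE of mt-Rnr2 was 0.36, with 95% intervals of -0.70 to 0.83 in the aortic and -0.67 to 0.86 in the pulmonary valve. As a share of reads mt-Rnr2 was 19.1% ± 4.17 in mutant against 18.6% ± 6.87 in wild-type aortic libraries, a difference of 0.463 percentage points (exact two-sided permutation test over 70 assignments, p = 0.857, adjusted over both valves 0.857). Pulmonary shares were 18.4% ± 2.72 against 17.2% ± 4.35, a difference of 1.21 points (exact permutation p = 0.8, adjusted 0.857). With 4 libraries against 4 the smallest p this test can give is 0.0286. Leaving out wild-type aortic 2 or 4 or mutant aortic 1 or 3 turned the sign of the aortic difference in share, over a range of -1.58 to 2.94 points, and leaving out wild-type pulmonary 2 turned that of the pulmonary one (-0.0849).

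The small-subunit rRNA mt-Rnr1 was at 60004, 38853, 64082 and 37350 normalised counts in wild-type aortic libraries 1 to 4 and at 48043, 40282, 50711 and 42246 in mutant aortic libraries. In the pulmonary valve the wild-type libraries gave 39617, 27028, 47178 and 32360 and the mutant ones 28489, 34825, 35004 and 32955. The mutant values lay inside the wild-type range in both valves. The log2 difference of mt-Rnr1 was -0.11 (SE 0.48) in the aortic and -0.13 (SE 0.48) in the pulmonary valve by limma, each at an adjusted p of 1.00.

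The complex I subunit mt-Nd6 was at 111, 80.0, 106 and 68.3 normalised counts in wild-type aortic libraries 1 to 4 and at 74.0, 51.8, 90.9 and 67.8 in mutant aortic libraries, from 287 to 819 reads per library over the study. The pulmonary values were 77.1, 70.8, 66.5 and 63.6 for wild type and 65.2, 68.7, 54.4 and 45.1 for mutants. The mutant was lower than the wild type of its litter in 8 of 8 pairs, which 0.387% of all genes also showed, yet the groups overlapped in each valve. These 8 pairs come from 5 litters, as JND8, JND7 and JNC10 gave a pair in each valve, so they are not independent. In the fourth aortic pair the values were almost equal.

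For mt-Nd6 the log2 difference was -0.36 (SE 0.22, unadjusted p = 0.118) in the aortic and -0.26 (SE 0.22, unadjusted p = 0.243) in the pulmonary valve, with an adjusted p of 1.00 in each by limma. Averaged over the valves it was -0.31 (SE 0.15, 95% interval -0.63 to 0.01, unadjusted p = 0.0597, adjusted p = 1.00, limma). Of the 10 members 9 were below 0 for this mean effect, as were 47.8% of all genes. None was called, where 0% of all genes were called and 2.79% had an unadjusted p under 0.05. With the litter as a block, the smallest unadjusted p among the members for the mean effect was 0.0448 (limma, adjusted p = 0.998). The share of all genes under 0.05 with this block is not given here. Against reads of mt-Nd5, its neighbour on the other strand, mt-Nd6 gave 7.12 ± 0.763 reads per 100 in wild-type and 5.89 ± 0.791 in mutant aortic libraries, and 6.06 ± 0.670 and 5.25 ± 1.06 in the pulmonary valve (SD, n = 4), with overlapping ranges in both.

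The complex I subunit mt-Nd2 was at 328, 198, 293 and 168 normalised counts in wild-type aortic libraries 1 to 4 and at 211, 127, 267 and 158 in mutant aortic libraries. Its pulmonary values were 262, 133, 268 and 237 for wild type and 218, 204, 200 and 147 for mutants. It was lower in the mutant in 7 of 8 litter pairs, as was mt-Co2, and 3.58% of all genes were lower in at least 7. The log2 difference of mt-Nd2 was -0.37 (SE 0.28) in the aortic and -0.19 (SE 0.28) in the pulmonary valve, and -0.28 (SE 0.20, unadjusted p = 0.179) on average, none called by limma (adjusted p = 1.00 in each).

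The remaining complex I members overlapped between genotypes as well. For mt-Nd1 the group means were 1667 ± 597 in wild-type and 1510 ± 377 in mutant aortic libraries, and 1394 ± 380 and 1306 ± 130 normalised counts in pulmonary ones, with log2 differences of -0.10 and -0.05 (SE 0.28). The level of mt-Nd4 was 1499 ± 365 against 1414 ± 345 in the aortic and 1343 ± 235 against 1363 ± 110 in the pulmonary valve, with log2 differences of -0.08 and 0.04 (SE 0.23). Cytochrome b, from mt-Cytb, stood at 1945 ± 470 against 1868 ± 386 and at 1742 ± 304 against 1647 ± 84.4, with log2 differences of -0.05 and -0.06 (SE 0.23).

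Among the cytochrome c oxidase subunits, mt-Co1 was at 6273, 5184, 6449 and 5579 normalised counts in wild-type aortic libraries 1 to 4 and at 5376, 4435, 6389 and 7605 in mutant aortic libraries. Its pulmonary values were 5763, 5129, 5890 and 6108 for wild type and 4877, 5961, 5404 and 5889 for mutants. The highest and the lowest mt-Co1 value of the study were both in mutant aortic libraries, and the log2 difference was -0.0036 (SE 0.25) in the aortic and -0.05 (SE 0.25) in the pulmonary valve. For mt-Co2 the means were 1415 ± 379 against 1263 ± 275 in the aortic valve, where the mutant was lower in 4 of 4 litter pairs, and 1487 ± 265 against 1441 ± 168 in the pulmonary valve. The log2 differences of mt-Co2 were -0.15 and -0.03 (SE 0.23). Those of mt-Co3 were -0.16 and -0.07 (SE 0.23), at 1771 ± 481 against 1564 ± 273 and 1513 ± 242 against 1444 ± 245 normalised counts.

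**Figure D3:**
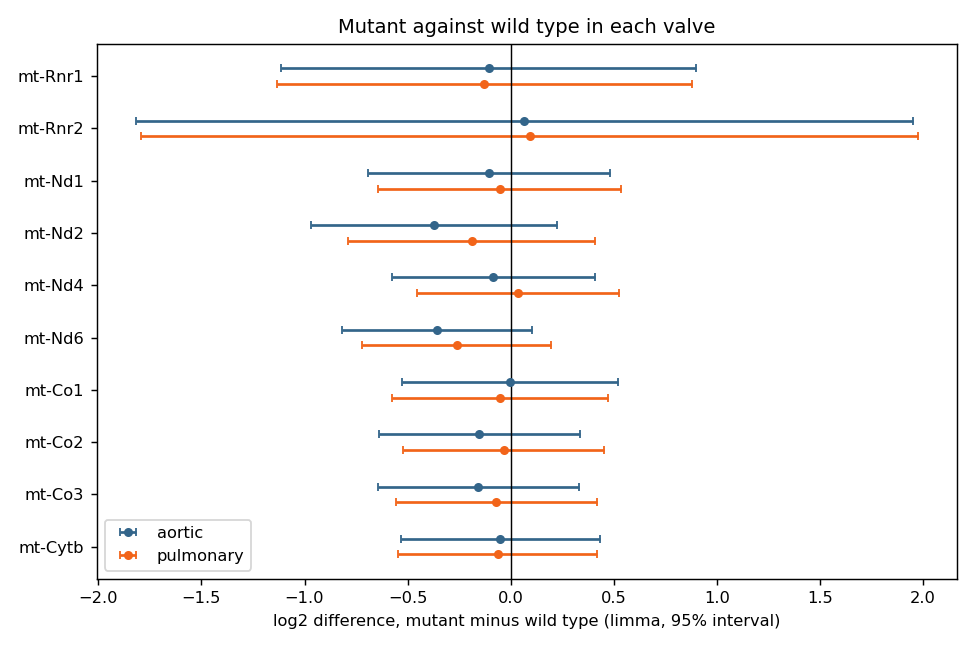
Points give the log2 difference of mutant minus wild type (x axis) of each member (y axis) in the aortic and the pulmonary valve, and bars give 95% intervals from limma. Every interval includes 0, and the widest are those of mt-Rnr2, with an SE of 0.89.

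Read as a list, 9 of 10 members had an aortic log2 difference below 0, with a median of -0.11, where 47.2% of all genes were below 0 and their median was 0.02. In the pulmonary valve 8 of 10 were below 0, with a median of -0.06, against 49.1% and 0.01 for all genes. The mutant was lower in 4 of 4 litter pairs for 3 members in the aortic valve (mt-Nd2, mt-Nd6 and mt-Co2; 5.03% of all genes) and for 1 in the pulmonary valve (mt-Nd6; 6.9% of all genes). It was higher in 4 of 4 pairs for 0 members, against 5.99% of all genes in the aortic and 6.67% in the pulmonary valve. No member had every mutant below every wild-type library, which held for 0.824% of all genes in the aortic and 1.05% in the pulmonary valve, or every mutant above, which held for 0.759% and 0.938%. These counts rest on few libraries: without wild-type aortic 3 the aortic count below 0 was 3 of 10 and without mutant aortic 2 it was 5, and without wild-type pulmonary 3 the pulmonary count was 4 and without wild-type pulmonary 1 it was 5. The members share the same libraries and the same genome, so they are not separate tests.

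The Mylpf split is uneven between genotypes, with 2 of 4 wild-type and 1 of 4 mutant libraries below 100 in each valve. All 14 skeletal muscle markers were in the table. Of these, 12 had a mutant minus wild-type difference above 0 in the aortic and 13 in the pulmonary valve (median log2 differences 0.46 and 0.83). Among all genes 47.2% were below 0 in the aortic and 49.1% in the pulmonary valve. Markers of some other cell types differed in sign by genotype too, with none of the lists holding a called gene. All 5 neuronal markers were above 0 in both valves (median log2 differences 1.17 and 1.73). Of 9 erythroid markers 7 were below 0 in the aortic and 8 in the pulmonary valve (medians -0.24 and -1.22), and of 7 endothelial markers 6 were above 0 in the aortic and 3 in the pulmonary valve (0.58 and -0.0038). Of 8 valve and cushion mesenchyme markers 5 were above 0 in the aortic and 3 in the pulmonary valve (0.23 and -0.31). Macrophage markers were nearly even, with 3 of 7 above 0 in the aortic and 4 in the pulmonary valve (-0.03 and 0.18). Smooth muscle markers were even, with 2 of 4 above 0 in each valve (-0.06 and -0.0074). The part of these cell types in the members' differences was not tested. Among libraries with Mylpf of at least 100, all 10 members had a difference below 0, with a median log2 difference of -0.38 in the aortic and -0.20 in the pulmonary valve. The share of all genes below 0 in this subset is not given here. In each valve its wild-type libraries are of litters JND8 and JNC10, while its mutants also include a JND7 library without the wild type of that litter. Genotype is thus mixed with litter in this subset. Among these libraries the aortic log2 difference was -0.68 for mt-Nd2 and -0.62 for mt-Nd6. They were the 2 members with an unadjusted p under 0.05, as 708 of the 13963 genes had (smallest member p 0.0253, limma, adjusted p = 0.833). Among libraries with Mylpf below 100, 4 members were below 0 in the aortic valve, with a median of 0.14, and 2 in the pulmonary valve, with a median of 0.06. That part of the split holds 1 mutant library per valve, whose spread is assumed to be that of the other groups. With the split as a covariate the median log2 difference was -0.22 in the aortic and -0.14 in the pulmonary valve, and 0 members were called by limma.

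The effect in the pulmonary valve was also set against that in the aortic valve by an interaction term. None of the 10 members was called (limma, 0% of all genes called, 1.89% at an unadjusted p under 0.05), and their median difference between the effects was 0.07 on the log2 scale. It was below 0 for 3 of 10 members and for 51.7% of all genes.

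Pulmonary and aortic valves were compared next, with the limit that the valve is also the library batch. None of the 10 members was called by limma, where 0% of all genes were called and 0.337% had an unadjusted p under 0.05, and the valves' ranges overlapped for every member, as for every gene tested (0% lay wholly higher and 0% wholly lower in the pulmonary valve). For 9 of 10 members the difference was below 0, as for 52.9% of all genes, with mt-Co2 the exception at 0.15 (SE 0.16). The level of mt-Rnr1 averaged 34682 in pulmonary and 47696 normalised counts in aortic libraries, a log2 difference of -0.45 (SE 0.34, limma, adjusted p = 1.00). For mt-Nd6 it was 63.9 against 81.3, a log2 difference of -0.32 (SE 0.15, unadjusted p = 0.0532, adjusted p = 1.00, limma). The SE of mt-Rnr1 also depended on the mean-variance trend, and without it was 0.17 (limma, unadjusted p = 0.0184, adjusted p = 1.00). With edgeR, DESeq2 or the Mylpf split as a covariate, mt-Rnr1 and mt-Nd6 had an unadjusted p under 0.05 (smallest 0.0109, 0.00613 and 0.0169). With a filter on a mean of 10 mt-Rnr1 did so alone (limma, unadjusted p = 0.0239), and the adjusted p was 1.00 in each. The 0.337% of all genes above is that of the main model. The share under these other settings is not given here, so these p-values cannot be set against it. The litters that gave both valves (JND8, JND7 and JNC10) make 6 pairs of the same litter and genotype, a pairing added after the data were seen. In these mt-Rnr1 was lower in the pulmonary library in 6 of 6, as were 0.859% of all genes, and no member was higher in 6 of 6, against 0.537% of all genes. The other members were lower in 5 of 6, except mt-Co1 (4) and mt-Co2 (2).

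The ratio of the rRNAs to each other was compared between valves as well. Reads of mt-Rnr2 per read of mt-Rnr1 averaged 3.77 ± 0.817 for wild type and 4.24 ± 0.852 for mutants in the aortic valve (SD, n = 4). The pulmonary ratio was 4.73 ± 0.736 for wild type and 5.55 ± 1.03 for mutants. Among libraries with Mylpf below 100 the ratio was 2.93 to 3.24 in 3 aortic and 3.87 to 4.57 in 3 pulmonary libraries, without overlap. Of these, 2 aortic libraries are of litter JGJ68, which gave no pulmonary library, and 2 pulmonary ones of JGH66, which gave no aortic one. Valve is thus mixed with litter there too. With Mylpf of at least 100 the ratio was 4.15 to 5.22 in 5 aortic and 4.86 to 6.40 in 5 pulmonary libraries, with overlap. In the 6 pairs of the same litter and genotype the ratio was higher in the pulmonary library in 6 of 6. These ratios are given as a description, with no test, and valve and batch cannot be told apart in them.

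The libraries were then set side by side across the Mylpf split, which follows a measured gene and so gets no test. In the 6 libraries with Mylpf below 100, mt-Rnr2 was at 109298 to 133455 normalised counts, and in the other 10 it was at 167029 to 298721, a ratio of medians of 1.79. As a share of reads this was 12.5% to 14.46% against 17.3% to 26.1%. It was the only 1 of the 10 members whose libraries did not overlap across the split, where 3.68% of all genes lay wholly lower and 2.6% wholly higher in the low-Mylpf libraries. The values nearest the split were 23.2 and 278 for Mylpf, so no library lay near 100.

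The composition of mitochondrial reads differed across the split too. The rRNA members gave 11.4 to 13.8 reads per mRNA-member read in the low-Mylpf and 17.1 to 21.3 in the other libraries, again without overlap. The mRNA members together took 1.18% to 1.55% of reads against 1.09% to 1.56%, with the low-Mylpf range inside the other. All 10 members had a lower median normalised count in the low-Mylpf libraries, as did 49.3% of all genes. By share of reads 8 of 10 did, against 39% of all genes, and mt-Co1 and mt-Nd6 had the higher median share there, with ratios of the high-Mylpf to the low-Mylpf median of 0.853 and 0.920. On the scale of normalised counts the ratio of medians ran from 1.02 for mt-Co1 and 1.05 for mt-Nd6 over 1.24 for mt-Rnr1 to 1.47 for mt-Nd2. Within the mRNA members mt-Co1 took 43.24% to 52.2% of reads in the low-Mylpf and 36.3% to 43.22% in the other libraries, ranges that just fail to meet.

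**Figure D4:**
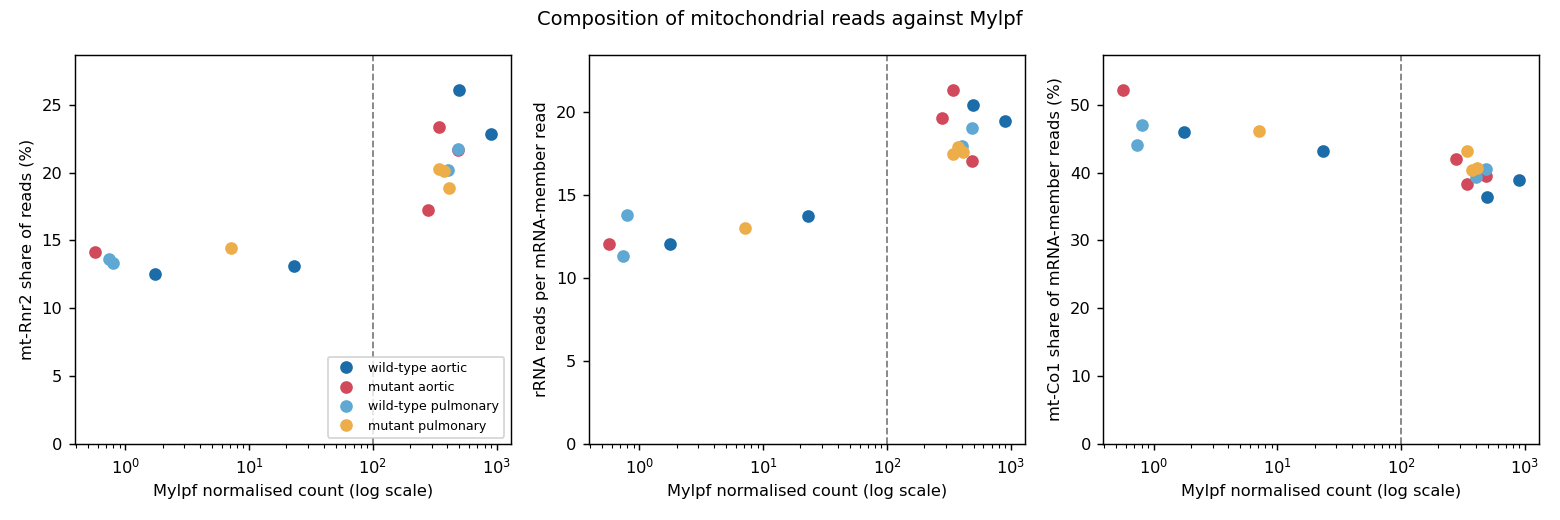
The panels plot, for each library coloured by group, the mt-Rnr2 share of reads (%), the rRNA reads per mRNA-member read and the mt-Co1 share of mRNA-member reads (%) against the Mylpf normalised count on a log axis, with a dashed line at 100. To the left of the line the share is 12.5% to 14.46% and the ratio 11.4 to 13.8, and to the right they are 17.3% to 26.1% and 17.1 to 21.3.

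Markers of some cell types moved across the same split. The 14 skeletal muscle markers, which include Mylpf itself, summed to 4.27 to 77.9 normalised counts in the low-Mylpf libraries, with 1 to 9 of them at 0. In the other libraries they summed to 841 to 2662, with none at 0. As the split follows Mylpf, part of this separation was set by the split. The 11 cardiomyocyte markers in the table summed to 58.5 to 418 against 253 to 2147, with overlap. In the other direction, the 8 valve and cushion mesenchyme markers summed to 7116 to 10073 against 1278 to 6943. The 7 endothelial markers summed to 973 to 1947 against 208 to 972, ranges that just fail to meet. Sums overlapped for the erythroid (1327 to 39750 against 2598 to 41593) and neuronal markers (37.1 to 85.9 against 16.2 to 591). Those of the macrophage (33.5 to 91.5 against 29.9 to 73.8) and smooth muscle markers (264 to 408 against 148 to 511) overlapped as well. Depth did not separate the sides, at 4.98 to 7.49 against 4.56 to 8.68 M reads. The part of these cell types in the level of mt-Rnr2 was not tested.

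Litter runs partly along the split as well. Both libraries of litter JGH66, both of JGJ68 and 2 of the 4 of JND7 were below 100 for Mylpf, and none of the 4 of JND8 or of the 4 of JNC10. Within JND7, mt-Rnr2 was at 126063 and 123434 normalised counts in the libraries with low Mylpf and at 167029 and 205827 in those with high Mylpf. The difference in mt-Rnr2 between the sides was thus present inside that litter, in both valves, though there the low libraries are wild type and the high ones mutant. Litter held 76.6% of the variance of mt-Rnr2 over the 16 libraries on the log2 scale, against a median of 38.8% over all genes, and 3.37% of genes reached that share.

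Among the other members the share of variance between litters was 67.4% for mt-Nd1, 64.5% for mt-Nd4 and 63.6% for mt-Co2, and 24.2% to 34.5% for mt-Co3, mt-Rnr1, mt-Nd6 and mt-Co1. The largest share of any mitochondrial gene was in a gene outside the 10, mt-Nd3, a complex I subunit that was singled out after its values were seen. It was at 88.5 to 162 normalised counts in the 4 libraries of JND8, at 77.9 to 80.8 in JGH66, at 66.1 to 76.0 in JGJ68, at 20.7 to 38.4 in JNC10 and at 18.8 to 39.3 in JND7. Litter held 89.8% of its variance, a share that 0.0501% of genes reached. The levels in JND8, JGH66 and JGJ68 did not overlap with those in JNC10 and JND7, whatever the genotype or the valve, and this division is not that of Mylpf. It was drawn from the mt-Nd3 values themselves. The share of all genes that some division of the litters would separate is not given here. The mt-Nd3 reads numbered 123 to 1195 per library.

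**Figure D5:**
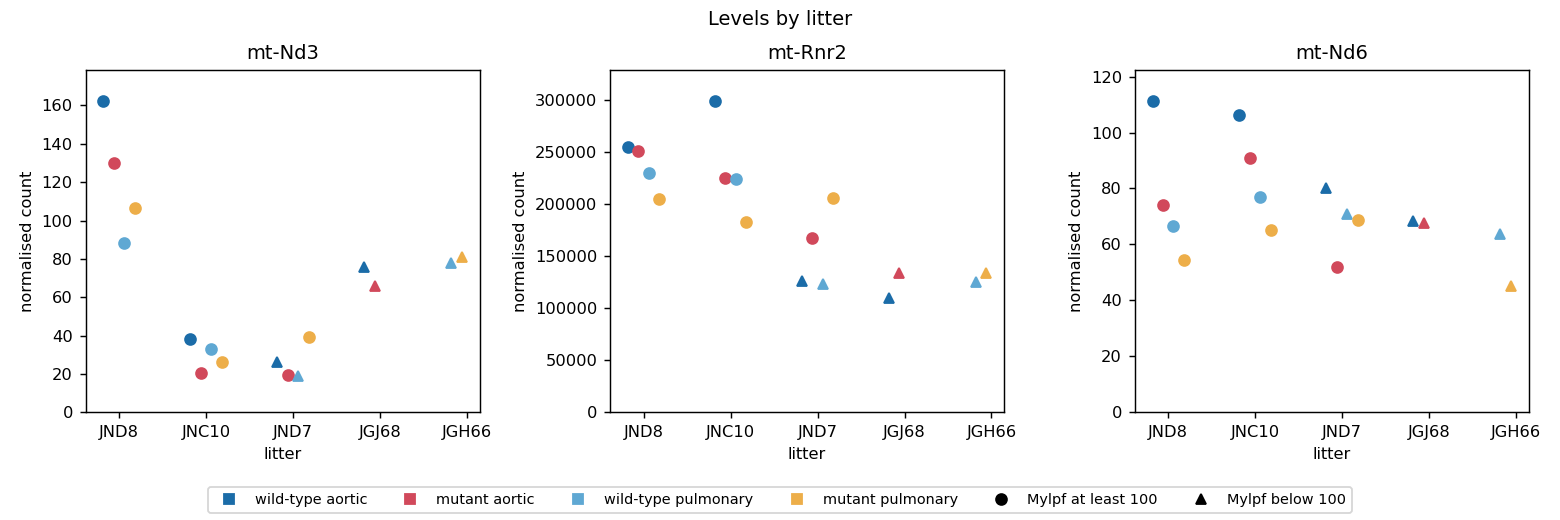
Normalised counts (y axis, linear from 0) of mt-Nd3, mt-Rnr2 and mt-Nd6 are plotted by litter, coloured by group and with the side of the Mylpf split as the symbol. For mt-Nd3 litters JNC10 and JND7 lie at 18.8 to 39.3, below every library of the other litters (66.1 to 162), while for mt-Rnr2 the low values are those of the low-Mylpf libraries.

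The members varied together across the 16 libraries to different degrees. Over the 45 pairs, Pearson's r of log2 levels ran from 0.15 (mt-Rnr2 with mt-Co1) to 0.95 (mt-Nd1 with mt-Cytb), with a median of 0.70. The points share library, litter and scaling, so these values are a description. Of 9434 other genes with a mean of at least 10 normalised counts, those most like mt-Rnr2 over the 16 libraries were Fam162a (r = 0.95), Prkaca, a catalytic subunit of protein kinase A (0.95), Mymk, the muscle fusion protein myomaker (0.95), Ibsp, bone sialoprotein (0.95), and C1qtnf3 (0.94). The last 3 were listed at 0 in at least 1 library. Most like the mean of the mRNA members were Slc25a3, the mitochondrial phosphate carrier (r = 0.84), Park7 (0.84), the cold-inducible RNA-binding protein gene Rbm3 (0.83), Ubl4a (0.83) and Coq7, an enzyme of coenzyme Q synthesis (0.82).

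The nuclear genes that serve the mitochondrial genome showed no called difference between genotypes. Of 38 genes for its maintenance, transcription and RNA processing, 0 were called by limma in either valve. Their aortic differences were above 0 for 19 and below for 19, and the pulmonary ones for 21 and 17, with medians of -0.01 and 0.03. The smallest p in this list was that of Mterf2, of the mitochondrial transcription termination factor family, for the mean effect. It averaged 4.74 ± 2.26 in wild-type and 8.39 ± 1.88 normalised counts in mutant aortic libraries and 4.52 ± 1.66 and 7.49 ± 2.23 in pulmonary ones, a mean log2 difference of 0.70 (SE 0.27, unadjusted p = 0.0189, adjusted p = 1.00, limma).

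Of 78 mitochondrial ribosomal protein genes, the partners of the rRNA members, 0 were called, with 58 below 0 in the aortic valve (median -0.13) and 33 in the pulmonary valve (median 0.04). The smallest p-values lay in opposite directions. The mean effect was -0.42 for Mrpl17, a large-subunit protein (SE 0.15, unadjusted p = 0.0141, adjusted p = 1.00, limma). It was 0.68 for Mrps6, a small-subunit protein (SE 0.25, unadjusted p = 0.0161, adjusted p = 1.00, limma). Nuclear subunits of complex I, in a list of 36 that also holds the paralog Ndufa4l2, numbered 32 below 0 in the aortic valve (median -0.20) and 14 in the pulmonary valve (median 0.12). Those of ATP synthase numbered 14 of 15 below 0 in the aortic valve (median -0.13) and 0 of 15 in the pulmonary valve (median 0.16). For complex IV the counts below 0 were 9 of 13 and 2 of 13, and for complex III with cytochrome c 7 of 10 and 4 of 10. None of these genes was called by limma in any of the comparisons, so the counts describe signs alone. Cardiomyocyte markers differed in sign the same way, with 9 of 11 below 0 in the aortic valve (median -0.28) and 3 of 11 in the pulmonary valve (median 0.43), and their part in the respiratory-chain counts was not tested.

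Across the Mylpf split the nuclear lists did not all move as mt-Rnr2 did. Of single genes 3.68% lay wholly lower and 2.6% wholly higher in the low-Mylpf libraries. No such share is given for means of lists, so whether the separations below are particular to these lists cannot be said. The mean log2 level of the 15 ATP synthase genes was 6.41 to 6.69 in the low-Mylpf and 6.79 to 7.53 in the other libraries, without overlap. That of the 13 complex IV genes was 5.32 to 5.66 against 6.08 to 6.68, also without overlap, with up to 2 genes at 0 in low-Mylpf libraries and none in the others. Complex II (6.11 to 6.28 against 6.36 to 6.93) and complex III with cytochrome c (5.50 to 5.82 against 5.88 to 6.51) did not overlap either. Complex I overlapped narrowly (4.64 to 4.96 against 4.92 to 5.73). For the 78 mitochondrial ribosomal protein genes it was 4.20 to 4.45 against 4.43 to 4.98, with a narrow overlap. The 38 genes of mitochondrial genome maintenance and expression were at 3.95 to 4.10 against 3.90 to 4.25, with the low-Mylpf range lying inside the other. The 8 nuclear genes that regulate the making of mitochondria were at 5.06 to 5.39 against 5.06 to 5.65, with overlap.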

How the data were processed

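The deposited table holds 1 normalised signal per gene and library for 16 libraries. Per the submitters' processing notes, CASAVA 1.8.2, cutadapt 1.6, FastQC and RSEM 1.2.3 were used with genome build GRCm38. In the values the authors deposited, 100% were whole multiples of 1 read (tolerance 0.05 read), and their scaling matched trimmed-mean (TMM) factors (0.873 to 1.14) on counts per M reads (M, megareads). The text calls them normalised counts. As RSEM estimates counts, a recovered read may be a rounded estimate, and no molecular identifiers are named, so reads need not be independent molecules. Symbols were matched for 13780 IDs. The other columns of values in the table numbered 0.

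The main test was limma 3.58.1 (R 4.3.3) on log2(value + 1) with a mean-variance trend, in 1 model of 4 group means over the 13963 genes that reached a value of 1 in 4 or more libraries. The test was two-sided, p-values were adjusted by Benjamini-Hochberg and the threshold was 0.05. Differences on this scale understate the change of low genes. The file turned out to allow recovery of reads, on which edgeR 4.0.16 and DESeq2 1.42.0 were run as alternatives. Shares were tested by exact permutation (SciPy 1.17.1). Copies were sought with BLAST 2.17.0 and sequences read from the GRCm38 reference with GENCODE M21.

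Tested on simulated data, limma recovered 1.5% of 200 genes changed 2-fold in the aortic, 5% in the pulmonary and 35.5% in the mean comparison, and 90.5%, 88.5% and 99.5% of those changed 4-fold. The simulation gave all genes the same dispersion and no litter or muscle effect, and it changed no mitochondrial gene. These rates are thus not those of the members. The correlations of same-litter libraries' deviations from their group means were 0.477, 0.0107, 0.205 and 0.642 for aortic pairs and 0.49, -0.0349, 0.0663 and 0.453 for pulmonary pairs. The pairing is given by the labels' litters, and 3 of the 8 correlations were below 0.1. No replicates agreed within sampling noise (lowest chi-square per gene 24.1).

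The members and gene lists were chosen with earlier results of these data known. Genes were named by rule: all members, other mitochondrial genes, Mylpf and Jag1, up to 4 genes of smallest p per mitochondrial list, and the 5 genes most alike to mt-Rnr2 and to the mean of the mRNA members, with fewer printed. Alternatives covered pseudocount, filter, scaling, tool, litter block, the Mylpf split and each library left out.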

Additional observations from a re-analysis of the deposited data

Results flagged for a closer look

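In groups of 4 libraries, 5 of 120 sets of values (40 of member levels, 80 of shares and ratios, which overlap in content) held a library far from the other 3, with a gap beyond Dixon's 95% limit for 4 values. Chance alone gives such a library in about 1 in 20 groups. In the wild-type pulmonary group mt-Nd4 was at 993 normalised counts in library 2, and at 1426 to 1492 in the others. In the mutant pulmonary group mt-Cytb was at 1773 in library 3, and at 1600 to 1614 in the others. Mutant pulmonary library 4, the only one of its group with Mylpf below 100, had 13.0 rRNA reads per mRNA-member read against 17.4 to 17.9, and mt-Rnr2 made up 74.5% of its member reads against 80.9% to 81.8%. The share of reads from mt-Co3 was 0.113% in mutant pulmonary library 1 and 0.155% to 0.162% in the others.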

How the results depend on the processing

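None of the 157 alternative counts of called members differed from 0. In 14 of these alternatives between 1 and 5 other genes of the table were called, against 0 in the main model. Of 790 alternative values of 25 single-member differences, 60 had the opposite sign, and 10 of the 25 never did, among them mt-Nd6 and mt-Nd2 in every comparison given, though their size moved. Values near 0 turned most often. The values below are log2 differences of mutant minus wild type, and the cause of each change was not tested. In the aortic valve mt-Co1 became 0.015 with no scaling factor, 0.049 under quantile normalisation, 0.020 with edgeR, 0.0043 with DESeq2 and 0.0091 with the Mylpf split as a covariate, and mt-Cytb became 0.10 under quantile normalisation. There mt-Rnr2 became -0.022 with edgeR, -0.044 with DESeq2, -0.38 among libraries with Mylpf of at least 100 and -0.15 with the covariate. In libraries with Mylpf below 100 the aortic values became 0.15 for mt-Rnr1, 0.17 for mt-Nd1, 0.12 for mt-Nd4, 0.50 for mt-Co1 and 0.26 for mt-Cytb. In the pulmonary valve mt-Co1 became 0.047 under quantile normalisation, mt-Rnr2 -0.20 and mt-Nd4 -0.063 with Mylpf of at least 100, and -0.12 and -0.047 with the covariate. With Mylpf below 100 the pulmonary values became 0.16 for mt-Rnr1, 0.049 for mt-Nd1, 0.073 for mt-Co1, 0.046 for mt-Co2, 0.087 for mt-Co3 and 0.067 for mt-Cytb.

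Leaving out each library in turn moved the log2 difference in the aortic valve over -0.23 to 0.026 for mt-Rnr1, -0.17 to 0.31 for mt-Rnr2, -0.26 to 0.078 for mt-Nd1, -0.22 to 0.065 for mt-Nd4, -0.13 to 0.13 for mt-Co1, -0.29 to 0.0071 for mt-Co3 and -0.18 to 0.091 for mt-Cytb. Without a change of sign it ranged over -0.55 to -0.20 for mt-Nd2, -0.49 to -0.22 for mt-Nd6 and -0.27 to -0.0021 for mt-Co2. In the pulmonary valve the ranges were -0.26 to 0.0047 for mt-Rnr1, -0.055 to 0.24 for mt-Rnr2, -0.25 to 0.068 for mt-Nd1, -0.10 to 0.094 for mt-Nd4, -0.10 to 0.0090 for mt-Co1, -0.14 to 0.059 for mt-Co2, -0.18 to 0.057 for mt-Co3 and -0.19 to 0.016 for mt-Cytb. Those of mt-Nd2 and mt-Nd6 were -0.43 to -0.067 and -0.35 to -0.15. The difference in mt-Rnr2 share ranged from -1.58 to 2.94 points in the aortic and from -0.0849 to 2.71 in the pulmonary valve. The litter as a replicate block changed no member's call. For the share of mt-Rnr2 the exact permutation p within litter pairs was 0.75 in the aortic and 0.875 in the pulmonary valve. With 4 pairs a valve that permutation cannot give a p under 0.05, so it decides nothing. Quantile normalisation fixes the rank of mt-Rnr1 and mt-Rnr2 and gave them no value. In simulation 1.5% (aortic) and 5% (pulmonary) of genes changed 2-fold were recovered with 4 libraries a group, and 35.5% for the mean over both valves. Differences of that size or smaller may thus not be detectable. The simulation did not copy the members' own spread, so the size of difference detectable in them was not tested.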
